A study of Mus musculus with 23 samples.

Results

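Within this RNA sequencing series of mouse hippocampus, 5 of 23 libraries carried a large amount of choroid plexus RNA, and these 5 were set against 17 that did not. The 5 were chosen by their count of Ttr (ENSMUSG00000061808), which encodes transthyretin, a carrier of thyroid hormone and of the retinol-binding protein: each held more than 10000 Ttr counts. They comprised the wild-type libraries WT_14 and WT_17 and the knockout libraries KO_2, KO_6 and KO_12. All libraries came from female mice, either wild type (Ins2+/+, WT, n = 12) or lacking Ins2, an insulin gene (Ins2-/-, KO, n = 11), in a study titled around insulin made in the brain, learning and memory. Age, strain, treatment and the construction of the Ins2 allele are not given in the sources used here, and the labels do not say outright that each library is a separate mouse. P-values therefore measure the spread between these samples only. The knockout library KO_8 stood apart with 10149 counts of Pmch, the gene for the hypothalamic peptide melanin-concentrating hormone, against at most 7.36 in any of the others, and it was left out, which leaves 10 WT and 7 KO libraries for the comparison. Totals ranged from 14864139 to 16660953 counts in the 5 choroid-containing libraries and from 13792274 to 22953261 in the other 17, and 21798 to 22156 and 21149 to 22484 genes had counts.

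The choroid plexus is a folded sheet of ciliated epithelium over a core of leaky capillaries and connective tissue that hangs into the brain ventricles and secretes cerebrospinal fluid. Its epithelial cells pump ions and water across a sealed layer, carry folate, hormones and metals from blood to fluid, and release proteins such as transthyretin and insulin-like growth factor 2. The plexus of the lateral ventricle lies against the hippocampus along the choroid fissure, so a dissected hippocampus can carry pieces of it.

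Because a measured count divided the libraries, the contrast between them is given as a description, with no test. Values are CPM, counts divided by the TMM-scaled library size and brought to a common total, and log2 fold changes are those of the choroid-containing over the other libraries at equal genotype, with their standard error (SE). A gene is described as higher or lower where its log2 fold change was at least 1 in size and no library of one set overlapped a library of the other. In bulk tissue, fewer cells of a type and less RNA per cell cannot be told apart.

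Ttr itself reached 43446 counts in WT_14, 50912 in KO_2, 146136 in KO_6, 208556 in KO_12 and 296745 in WT_17. In the other 17 libraries it lay between 66 and 1173 counts, with a median of 361. The library just inside the rule was thus WT_14 and the one just outside it KO_13, with 1173 counts. In CPM the 5 libraries held 2877, 3104, 8651, 12374 and 18399 in the same order, and the others 4.49 to 55.2 with a median of 20.6. The amount therefore differed 6.40-fold within the set, with WT_14 and KO_2 low and WT_17 high, and Ttr alone made up 0.292% to 1.81% of all counts there. KO_8 had 7 Ttr counts.

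The label was read against 5 other choroid plexus markers, listed with earlier results of these data known, and each was higher in all 5 libraries than in all 17. Of these 5 markers 4 also passed the filter on low counts in the 17 libraries alone, and Kcnj13 did not. Folr1 (ENSMUSG00000001827, chr7:101858331-101870788 on GRCm38), the epithelial folate receptor, had 16.8 CPM in WT_14, 18.7 in KO_2, 50.6 in KO_6, 87.5 in KO_12 and 120 in WT_17, against 0.0681 to 2.01 (median 1.06) in the others, a log2 fold change of 5.80 (SE 0.353). Kcnj13 (ENSMUSG00000079436, chr1:87386363-87394729), an inwardly rectifying potassium channel of the apical membrane, had 19.4, 16.3, 45.5, 108 and 137 CPM in the same order, against 0 to 2.12 (median 0.328), a log2 fold change of 6.76 (SE 0.471). In both genes WT_14 and KO_2 were the lowest of the 5 and WT_17 the highest, as for Ttr. Kl (ENSMUSG00000058488, chr5:150952607-150993817), the co-receptor klotho, had 119, 112, 292, 594 and 717 CPM against 17.1 to 30.1 (median 23.3), a log2 fold change of 4.02 (SE 0.26). Clic6 (ENSMUSG00000022949, chr16:92485736-92541243), of the chloride intracellular channel family, had 75.9, 51.0, 148, 321 and 334 CPM against 0.749 to 16 (median 2.35), a log2 fold change of 5.82 (SE 0.447). Otx2 (ENSMUSG00000021848, chr14:48657677-48673819), a homeodomain transcription factor needed to form and keep the plexus, had 12.2, 10.5, 24.7, 60.7 and 80.2 CPM against 0.0592 to 8.97 (median 1.11), a log2 fold change of 4.22 (SE 0.555). Otx2 left the narrowest gap, with 10.5 CPM in KO_2 beside 8.97 in KO_4. In KO_8, left out here, Clic6 stood at 25.8 CPM while Ttr stood at 0.419.

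**Figure D1:**
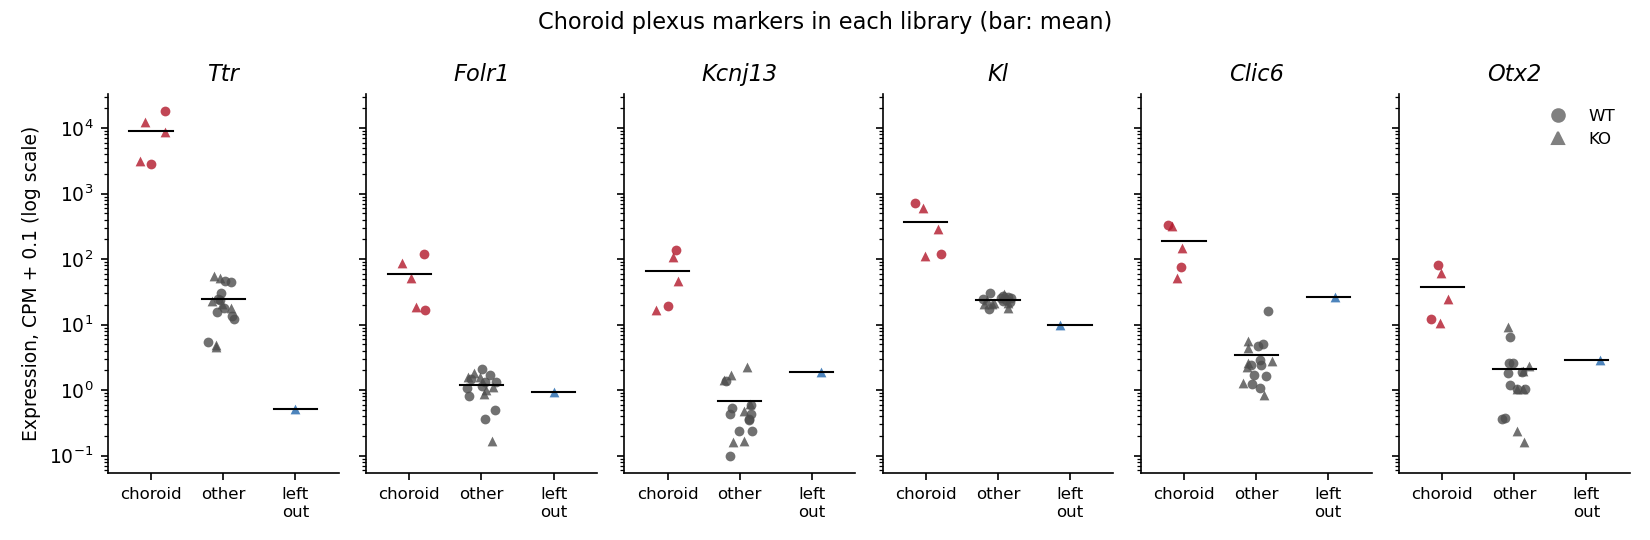
CPM + 0.1 of Ttr and the 5 other choroid plexus markers on a log axis, 1 point per library (circles WT, triangles KO) with the mean as a bar, in the 5 choroid-containing libraries, the 17 others and KO_8, labelled left out. The 5 and the 17 do not overlap for Ttr, by the rule, nor for the 5 other markers, of which Otx2 comes nearest to overlap.

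Of 16530 genes that passed the filter on low counts, 232 were described as higher in the choroid-containing libraries (1.4%) and 0 as lower (0%). A gene could pass that filter through the choroid-containing libraries alone, so the share described as higher is in part set by it. The higher genes had a median log2 fold change of 2.24 and a range of 1.0 to 8.56, and the median over all genes tested was -0.01. Without a minimum fold, 337 genes (2.04%) lay wholly above and 43 (0.26%) wholly below the other libraries, and with overlap allowed 621 (3.76%) reached a log2 fold change of 1 and 38 (0.23%) one of -1. Just inside the minimum fold were Emcn (1.0), an endothelial sialomucin, Cpt1a (1.0), the carnitine palmitoyltransferase of mitochondrial fat import, and Parp3 (1.01). Just outside it were Slco1a4 (0.996), Il10rb (0.976) and Cracr2b (0.972). The count depended on KO_2, a library of low Ttr: 392 genes were described as higher without it, 231 of the 232 among them. Of the 232 genes, 82 (35.3%) share exon sequence with another gene in GENCODE M21, Otx2 and Mfrp among them, and their counts are uncertain because the use of strand in counting is not given in the sources used here.

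**Figure D2:**
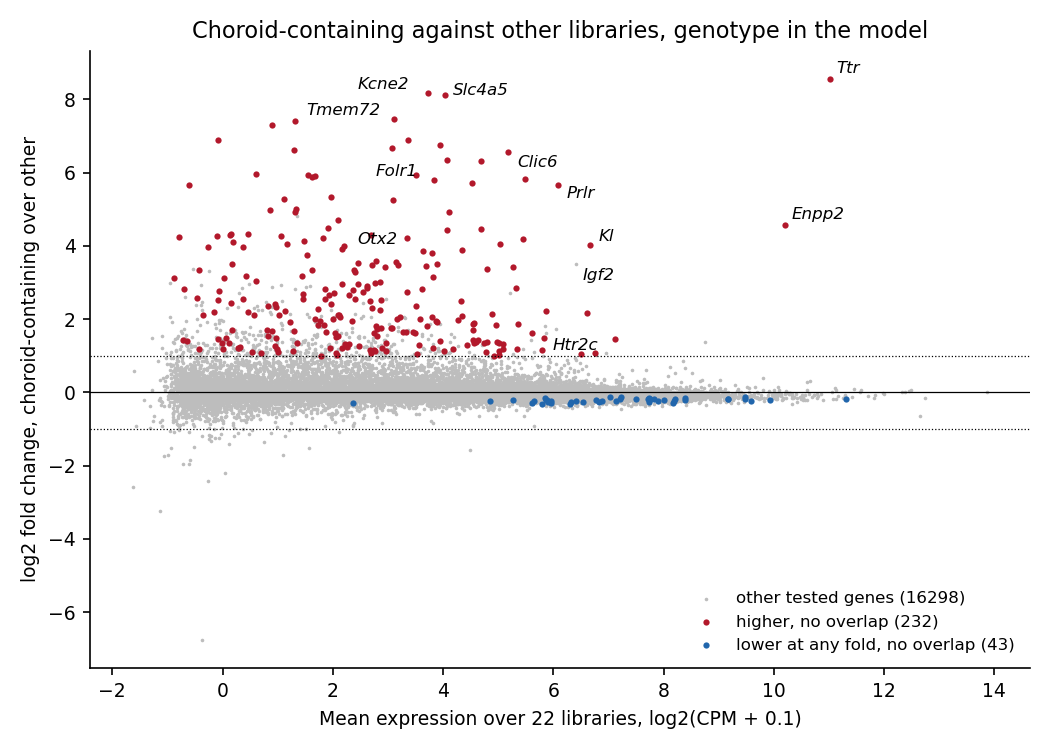
Log2 fold change of the choroid-containing over the other libraries (y axis) against mean expression over 22 libraries in log2(CPM + 0.1) (x axis), 1 point per tested gene. The 232 genes described as higher (red) rise to 8.56 for Ttr, while the 43 genes below all other libraries at any fold (blue) lie between -0.32 and -0.13.

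Over the 7 lists of choroid plexus function, which hold 82 genes, 38 of the 79 tested were described as higher, against 1.4% of all genes. Ttr is among them by the rule, and 12 of the 78 other tested genes passed the filter on low counts only with the choroid-containing libraries included, so the share is in part set by that choice and nothing is read from it. The lists, like the libraries, were chosen with earlier results of these data known, and 3 listed genes were too low to test. Of the 232 genes described as higher, 192 were in none of the 27 lists.

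Among 13 secreted proteins 6 were described as higher, and the median log2 fold change of the 13 was 2.86. Enpp2 (ENSMUSG00000022425, chr15:54838901-54952892), which encodes autotaxin, the enzyme that makes lysophosphatidic acid, had 1501 CPM in WT_14, 1407 in KO_2, 3667 in KO_6, 7148 in KO_12 and 8989 in WT_17, against 127 to 286 (median 190), a log2 fold change of 4.58 (SE 0.275). The lowest of the 5 lay well above the highest of the 17. F5, coagulation factor V, had 39.0 to 339 CPM against 0.651 to 2.80, a log2 fold change of 6.56. Sostdc1, a secreted antagonist of BMP and Wnt signals, had 21.2 to 120 CPM against 1.91 to 3.72 (4.43). Igfbp2, an insulin-like growth factor binding protein, had 41.0 to 209 CPM against 7.70 to 27.0 (2.86). The other members described as higher were 1500015O10Rik (5.70) and Wfikkn2 (3.99). Igf2, the growth factor itself, had 192 CPM in WT_14, 53.7 in KO_2, 225 in KO_6, 310 in KO_12 and 658 in WT_17, against 5.65 to 75.1 (median 22.2). Its log2 fold change was 3.52 (SE 0.427), but KO_2 fell inside the range of the others, so it was not described as higher.

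Among 15 genes of ion and water transport 8 were described as higher, with a median log2 fold change of 1.72. Kcne2 (ENSMUSG00000039672, chr16:92292389-92298129), a potassium channel beta subunit, had 23, 19.8, 42.9, 83.6 and 118 CPM in WT_14, KO_2, KO_6, KO_12 and WT_17, against 0 to 0.587 (median 0.134), a log2 fold change of 8.17 (SE 0.351). Slc4a5 (ENSMUSG00000068323, chr6:83219828-83304945), a sodium bicarbonate cotransporter, had 22, 23.4, 55.6, 116 and 137 CPM against 0 to 0.717 (median 0.201), a log2 fold change of 8.13 (SE 0.385). After Ttr these had the largest log2 fold changes of any listed gene, and both were near 0 in the other 17 libraries. Aqp1, the water channel of the apical membrane, had 10.5 to 94.1 CPM against 0.0592 to 0.717 (6.89), and Trpv4, an osmotically gated cation channel, had 10.8 to 66.2 against 0.391 to 1.39 (5.25). The anion exchanger gene Slc4a2 (2.23), the cation channel gene Trpm3 (2.18), the carbonic anhydrase gene Car14 (2.0) and the sodium pump regulator gene Fxyd1 (1.43) were also higher. Slc12a2, the sodium, potassium and chloride cotransporter, had 102 to 324 CPM against 74.0 to 125, which overlapped. The sodium pump subunit gene Atp1b1 (-0.10), which neurons also express, differed little.

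Of 19 tested genes for the transport of solutes 7 were described as higher, with a median of 1.17. Slc16a8, a monocarboxylate transporter, had 3.35 to 21.9 CPM against 0 to 0.603 (5.93), and Steap1, a metalloreductase, had 4.21 to 26.2 against 0 to 0.493 (5.89). The organic anion transporter gene Slco1a5 (4.10), the glucose transporter gene Slc2a12 (3.51) and the copper importer gene Slc31a1 (2.13) followed. Slco1c1 (1.61), whose product carries thyroid hormone, was higher too, with 52.1 to 181 CPM against 25.1 to 46.5. Slc46a1 (0.31), the proton-coupled folate transporter, had 16.3 to 22.8 CPM against 14.2 to 18.8, unlike Folr1.

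Of 7 hormone and growth factor receptors 2 were described as higher. Prlr, the prolactin receptor, had 81.2 CPM in WT_14, 65.7 in KO_2, 173 in KO_6, 449 in KO_12 and 623 in WT_17, against 3.95 to 12.6 (median 5.09), a log2 fold change of 5.66 (SE 0.335). Lepr, the leptin receptor, had 9.14 to 37.9 CPM against 0.682 to 4.80 (3.48). Htr2c, the serotonin 2C receptor, had 52.1 to 212 CPM against 17 to 62.6 (1.62), which overlapped through KO_2. Insr, the insulin receptor, had 53.0 to 65.4 CPM in the choroid-containing libraries and 52.0 to 66.3 in the others, a log2 fold change of 0.06 (SE 0.0575), and the 2 ranges nearly coincided. Igf1r (0.20) and Igf2r (0.40) also overlapped.

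Of 11 tested junction and epithelial genes 7 were described as higher, with a median of 3.53. Cldn2, a pore-forming claudin of leaky epithelia, had 12.3 to 97.4 CPM against 0.502 to 1.21 (5.94), and Cldn1, a sealing claudin, 7.07 to 44.2 against 0.402 to 3.75 (4.31). The keratins Krt18 (4.50) and Krt8 (4.12), intermediate filaments of simple epithelia, and Calml4 (3.53) and Spint2 (1.97) belonged to the same group. Cdh3, P-cadherin, had 2.38 to 16.6 CPM against 0 to 0.142. Most of the 17 libraries held no count of it, so its fitted log2 fold change of 7.30 depends on the prior count and is no bound. Tjp1 (-0.03), a scaffold that endothelium also uses, overlapped, with 92.9 to 111 CPM against 92.0 to 132.

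Of 8 tested transcription factors of the roof plate and choroid lineage 2 were described as higher: Lmx1a, with 1.46 to 7.56 CPM against 0.067 to 0.469 (3.97), and Msx1, with 14.9 to 44.2 against 1.97 to 7.14 (2.74). Foxj1, the master regulator of motile cilia, had 13.2 to 41.1 CPM against 4.70 to 31.7 (0.94), and Emx2 was at -0.15. The plexus of the hindbrain ventricle is known to keep expressing Hox genes. Of 6 hindbrain genes 1 was high enough to test, Shh, with 0.949 to 1.61 CPM against 0.844 to 3.63. The 5 Hox genes were at 0 to 0.124 CPM in the choroid-containing libraries, at or below the 0.202 CPM that 3 counts come to in the smallest of them.

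Promoters of the higher genes were looked at for the letters that OTX2-type homeodomain proteins bind, because Otx2 is itself one of the markers. TAATCC, or GGATTA on the other strand, was searched for in the RefSeq promoters of GRCm38.p6, each reaching from 250 bases before to 50 bases after a gene's start. Promoters were matched for 175 of the 232 genes. The letters were present in 14 of their 220 promoters (6.36%), in 861 of 15198 promoters of tested genes (5.67%) and in 2320 of 32851 promoters in all (7.06%). The share among the higher genes lay between these backgrounds. Abca4, a retinoid lipid transporter gene (4.93), and Otx2 are shown as promoters that hold the letters, in capitals, and Kcnj13 as one that does not. They lie at chr3:122044210-122044509 (plus strand), chr14:48665060-48665359 (minus strand) and chr1:87394680-87394979 (minus strand).
Abca4: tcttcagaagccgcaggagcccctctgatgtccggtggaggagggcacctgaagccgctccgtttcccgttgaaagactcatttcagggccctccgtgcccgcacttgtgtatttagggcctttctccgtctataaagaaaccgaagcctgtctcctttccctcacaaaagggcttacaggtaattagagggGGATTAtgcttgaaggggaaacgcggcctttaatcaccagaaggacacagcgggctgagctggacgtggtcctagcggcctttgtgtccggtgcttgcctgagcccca
Otx2: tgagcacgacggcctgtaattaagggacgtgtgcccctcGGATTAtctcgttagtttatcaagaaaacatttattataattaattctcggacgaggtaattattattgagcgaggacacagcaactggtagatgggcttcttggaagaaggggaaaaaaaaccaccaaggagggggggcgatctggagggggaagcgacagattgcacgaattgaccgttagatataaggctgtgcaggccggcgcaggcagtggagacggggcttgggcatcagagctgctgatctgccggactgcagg
Kcnj13: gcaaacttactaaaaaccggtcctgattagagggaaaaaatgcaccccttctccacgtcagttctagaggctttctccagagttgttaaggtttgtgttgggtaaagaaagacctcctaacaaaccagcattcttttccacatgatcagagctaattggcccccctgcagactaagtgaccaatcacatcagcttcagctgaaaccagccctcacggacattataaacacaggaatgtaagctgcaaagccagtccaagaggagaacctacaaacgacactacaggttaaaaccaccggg
The letters begin 58 bases before the start in Abca4 and 211 bases before it in Otx2. A match is a description of the sequence and shows no binding.

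Among the genes of no list, the 20 with the largest log2 fold changes ran from 4.32 to 7.46. Tmem72, a membrane protein gene, had 9.47 CPM in WT_14, 9.57 in KO_2, 31.4 in KO_6, 59.4 in KO_12 and 74.5 in WT_17, against 0 to 0.493 (median 0.188), a log2 fold change of 7.46 (SE 0.43). Mfrp, a frizzled-related membrane protein gene, had 35.2, 32.0, 96.2, 200.4 and 177 CPM against 0.71 to 2.05, a log2 fold change of 6.33 (SE 0.313). The collagen genes Col8a1 (6.35) and Col4a3 (5.33), the betaine-homocysteine methyltransferase gene Bhmt (5.67) and the protease inhibitor genes Wfdc2 (6.61) and A2m (4.47) were among the 20 largest. The other members of these 20 were Tmprss11a (7.42), Sult1c2 (6.90), Wdr86 (6.67), Wdr72 (5.98), Prr32 (5.92), Tc2n (5.28), Fap (5.0), Cox8b (4.97), Oca2 (4.94), Abca4 (4.93), Rbm47 (4.71), Il17re (4.33) and Tmem184a (4.32). The median of the 17 other libraries was under 3 counts for Tmprss11a, Sult1c2, Wfdc2, Wdr72, Prr32, Bhmt and Cox8b, so their fitted fold changes depend on the prior count and are no bounds, which held for 11 of the 232 genes described as higher.

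Markers of other cell types were read beside these genes, since a piece of plexus also carries connective tissue, vessels and immune cells. Of 16 genes of stroma and meninges 2 were described as higher, and the log2 fold changes of the 16 lay above 0, with a median of 1.39, where 48.3% of all genes tested lay above 0. In the 17 libraries alone 14 of the 16 passed the filter on low counts, so the direction of the others is in part set by the filter. Col1a2, a fibrillar collagen chain, had 33.8 CPM in WT_14, 23.4 in KO_2, 34.5 in KO_6, 48.0 in KO_12 and 29.9 in WT_17, against 1.54 to 20.0 (median 6.71), a log2 fold change of 2.06 (SE 0.384). Lum, the proteoglycan lumican, had 8.72 to 18.9 CPM against 3.50 to 8.09 (1.13). The sum over the 16 genes was 553 to 1605 CPM against 133 to 1106, so the sets overlapped for the list as a whole.

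Of 10 tested genes of border macrophages 0 were described as higher. Their log2 fold changes lay above 0 with a median of 1.55, against 48.3% of all genes above 0, but 8 of the 10 passed the filter in the 17 libraries alone, and the same limit holds for the others. The antigen presentation genes H2-Aa (2.87) and Cd74 (2.43) had 2.78 to 12.7 and 5.91 to 26.7 CPM against 0 to 4.11 and 0.533 to 7.5. The sum over the list was 37.7 to 108 CPM against 10.2 to 48.6. Of 14 tested genes of motile cilia, which ependyma and plexus share, 0 were described as higher, with a median of 0.72 and a sum of 50.4 to 152 CPM against 29.0 to 134. Pifo (1.66) and Cfap126 (1.35) were the highest of them and Spag17 (-0.31) the lowest.

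The 7 genes of barrier endothelium had a median of 0.54 and a sum of 194 to 269 CPM against 115 to 196, with 0 described as higher. Plvap (0.28), the only tested gene of 3 for fenestrated endothelium, had 5.93 to 11 CPM against 4.43 to 10.2. The 5 genes of red blood cells had a median of 0.66 and 0 described as higher, and their sum of 197 to 281 CPM lay inside the 79.0 to 565 of the others. The median of 11 microglial genes was -0.07. The part of stroma, vessels, blood and immune cells in the contrast was not tested.

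**Figure D3:**
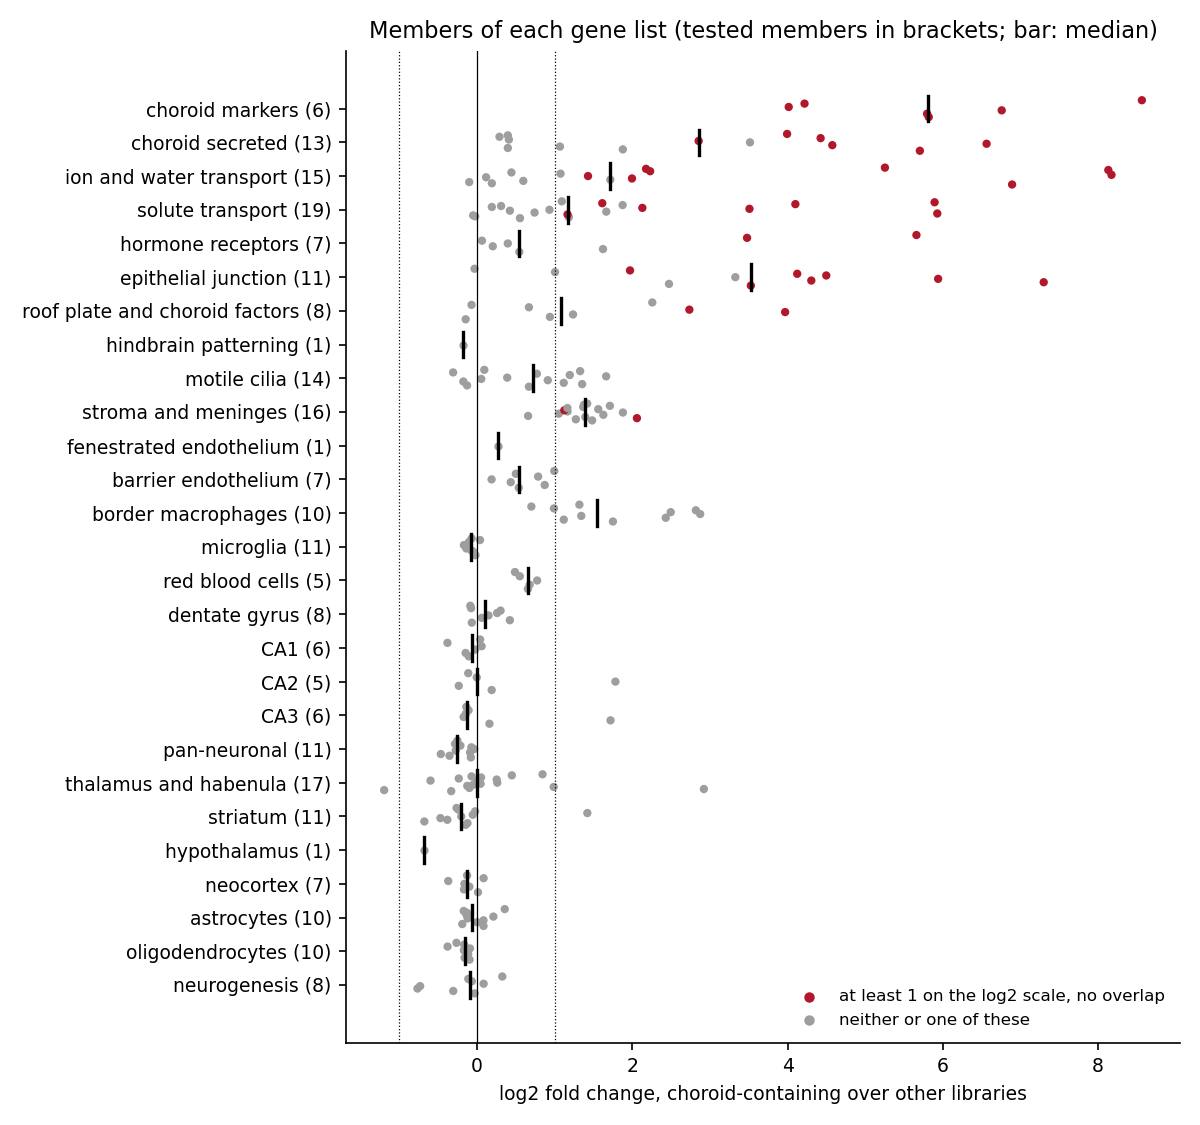
Log2 fold change of the choroid-containing over the other libraries for each tested gene of the 27 lists, 1 row per list, with the list's median as a bar. The choroid plexus lists have medians between 0.55 and 5.81 and reach 8.56 for Ttr, which chose the libraries. The lists of hippocampal subfields, thalamus and neocortex have medians between -0.13 and 0.11, with single genes up to 2.92.

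Most genes of the hippocampus itself differed little. The medians were 0.11 for 8 genes of the dentate gyrus, -0.06 for 6 of CA1, -0.00 for 5 of CA2 and -0.12 for 6 of CA3, with 0 of these described as higher or lower. The exceptions were Map3k15 (1.78), listed for CA2, with 2.68 to 14.3 CPM against 1.32 to 3.85, and Coch (1.72), listed for CA3, with 6.95 to 23.3 against 1.24 to 8.77, both with overlap. Astrocyte (-0.06), oligodendrocyte (-0.15) and neurogenesis (-0.09) lists also had medians near 0. Of 11 neuronal genes, which include the interneuron genes Gad1, Gad2, Pvalb, Sst and Vip, 0 lay above 0, with a median of -0.25. Of 10 oligodendrocyte genes 0 and of 11 microglial genes 1 lay above 0. Snap25, a synaptic vesicle fusion protein gene, had 1839 CPM in WT_14, 1834 in KO_2, 1752 in KO_6, 1576 in KO_12 and 1507 in WT_17, against 1693 to 2247 (median 1952), a log2 fold change of -0.21 (SE 0.0562). Its order over the 5 libraries was the reverse of that of Ttr, and the ranges overlapped. Gad1 (-0.35) and Gad2 (-0.47), which make the transmitter of interneurons, overlapped as well.

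The 43 genes that lay wholly below the other libraries did so by small amounts, from -0.32 to -0.13 with a median of -0.21, a level 13.6% lower. They include Rab39b (-0.32), a small GTPase of neurons, and Cadps (-0.29), a factor for the release of dense-core vesicles. All genes described as higher together took 0.776% to 3.94% of the counts in the choroid-containing libraries and 0.139% to 0.205% in the others. The counts above the mean of the others came to 0.602% to 3.84% of a library, and to 0.294% to 2.01% without Ttr. Of the neighbouring regions, 0 of 17 tested thalamic and habenular genes (median -0.00), 0 of 11 striatal genes (-0.20) and 0 of 7 neocortical genes (-0.13) were described as higher. The thalamic and habenular genes ran from -1.19 for Chrna3 to 2.92 for Chrnb4, both nicotinic receptor subunit genes, with 0.237 to 0.62 CPM against 0.248 to 5.54 and 0.662 to 3.6 against 0 to 1.63. Of the 11 hypothalamic genes 1 was high enough to test, Pomc (-0.68), with 0.558 to 1.31 CPM against 0.545 to 7.93. Ppp1r1b (1.42), listed for the striatum, had 53.3 to 148 CPM against 26.2 to 53.7 while the other 10 striatal genes lay between -0.68 and -0.02.

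Since Ttr differed 6.40-fold among the 5 libraries, each gene's ratio to Ttr was followed across them. Of the 232 genes, 177 had a mean of at least 5 CPM there, and the SD of their log2 ratio to Ttr over the 5 libraries had a median of 0.441 and a range of 0.108 to 1.23. A gene at 1 level in all 5 libraries would have the SD of log2 Ttr itself, 1.20. In 105 of the 177 it was below 0.5. The level of these genes differed between the highest and the lowest library by a median of 4.15-fold, from 1.5-fold to 19.4-fold. With the mean of the other libraries subtracted, the median SD was 0.369 and 137 genes were below 0.5.

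Folr1 kept one of the steadiest ratios, with 5.82 CPM per 1000 CPM of Ttr in WT_14, 6.03 in KO_2, 5.85 in KO_6, 7.07 in KO_12 and 6.54 in WT_17 (SD of the log2 ratio 0.120). Enpp2 had 522, 453, 424, 578 and 489 per 1000 in the same order (0.174), and Slc16a9, a carnitine transporter gene, 2.07, 1.79, 1.69, 1.83 and 1.86 (0.108). With the mean of the other libraries subtracted, the SD was 0.146 for Folr1 and 0.209 for Enpp2, but 0.261 for Slc16a9, whose ratio then ran from 1.11 in KO_2 to 1.75 in WT_17. Folr1 and Enpp2 thus differed almost in proportion to Ttr either way. Col4a4, Cpxm2, 1500015O10Rik, Col8a1, Rdh5, Cgnl1 and Col9a3 completed the 10 steadiest without subtraction. By list, the median SD was 0.315 for the 5 markers, 0.255 for 6 secreted proteins, 0.280 for 8 genes of ion and water transport, 0.298 for 7 junction genes, 0.367 for 6 genes of solute transport and 0.394 for 2 hormone receptors, and it was 0.512 for the 1 roof plate factor with enough expression.

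Another group of genes did not scale with Ttr. Hspb1, a small heat shock protein gene, had 9.87 CPM in WT_14, 6.58 in KO_2, 6.87 in KO_6, 8.01 in KO_12 and 8.25 in WT_17, against 0.885 to 6.11 in the others, and the SD of its log2 ratio was 1.23. It was thus highest in the library with the least Ttr. Col1a2 (SD 1.08), Edn3 (1.10), the gene for the vasoactive peptide endothelin 3, Id1 (1.05), a target of BMP signals, and Ephb4 (1.05), a receptor of venous endothelium, were the others of the 5 least steady genes. Id1 ran only from 10.8 to 16.4 CPM and Ephb4 from 5.55 to 9.26 over the 5 libraries. The 2 genes of stroma and meninges described as higher had a median SD of 1.01.

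**Figure D4:**
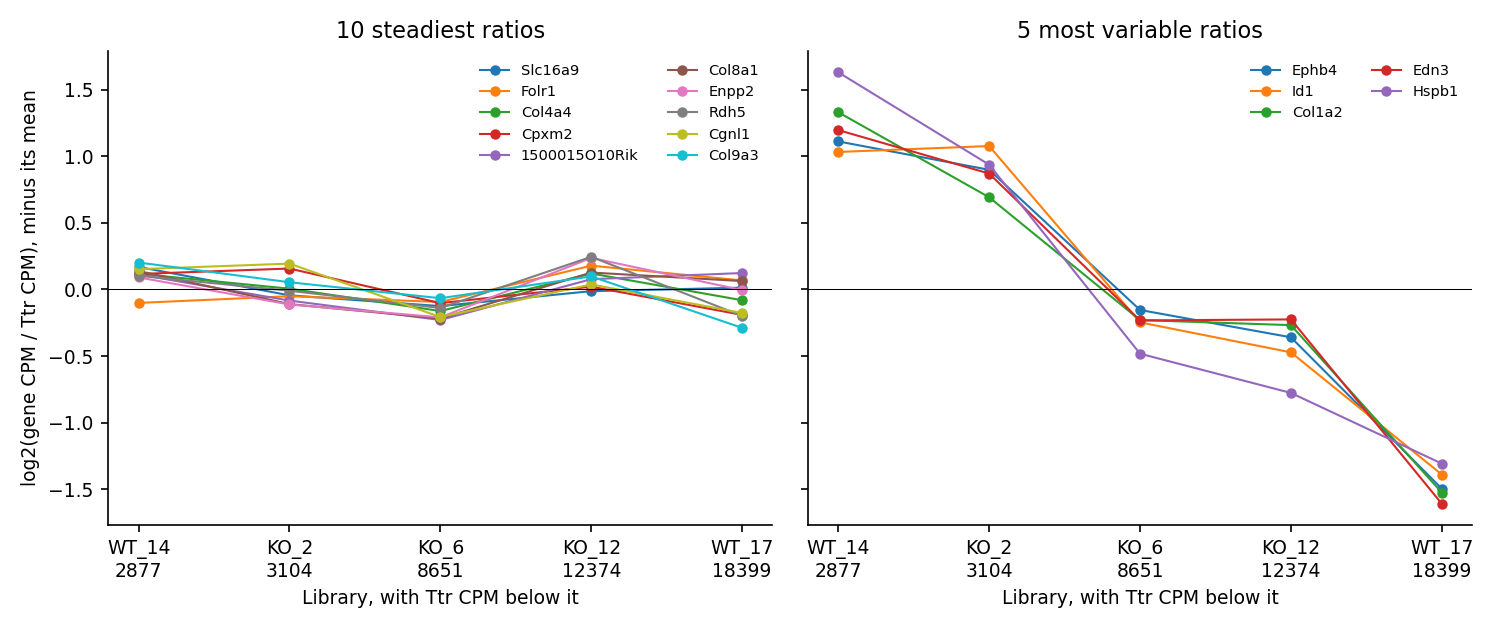
Log2 ratio of CPM to Ttr CPM in the 5 choroid-containing libraries, ordered by Ttr, minus each gene's mean over the 5, for the 10 steadiest genes (left) and the 5 least steady (right). Folr1 and Enpp2 run nearly flat, while the ratios of Hspb1 and Col1a2 are highest in WT_14 and lowest in WT_17.

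In the 17 other libraries several genes of the plexus stood in other proportions to Ttr. The rule kept Ttr low in the 17, so a ratio to it is higher there for any gene that differed less than Ttr. The direction is thus in part set by the rule and nothing is read from it. Pooled over libraries, Folr1 came to 6.48 CPM per 1000 CPM of Ttr in the choroid-containing set and 42.6 in the others. Kl, at 40.4 and 914, and Enpp2, at 500.3 and 7780, differed more, as did Igfbp2, at 13.1 and 659, and Igf2, at 31.4 and 1030. Otx2 came to 4.14 and 83.3, Clic6 to 20.5 and 144, Kcnj13 to 7.19 and 23.9 and Aqp1 to 4.82 and 15.0. Kcne2 came to 6.31 and 8.28 and Slc4a5 to 7.80 and 10.1, at a level that was near 0 in the others. Single libraries of the 17 spread widely around these pooled ratios. Otx2 had a median of 43.5 (11.1 to 461) over them, against 2.85 to 4.91 in the choroid-containing libraries. Kcnj13 had a median of 12.5 (0 to 236) against 5.26 to 8.71, so the sets overlapped for it, as they did for Kcne2 (median 8.93, 0 to 44.9) and Slc4a5 (median 9.47, 0 to 44.9). Folr1, with a median of 44.9 (15.0 to 225) against 5.82 to 7.07, and Clic6, with 116 (50.9 to 353) against 16.4 to 26.4, did not overlap.

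Whether the small amounts of Ttr in the 17 libraries moved with the other markers was asked by correlation, on log2(CPM + 0.1) with 100000 permutations, two-sided, over 6 relations. The sum of the 5 other markers had Pearson's r = 0.385 (permutation p = 0.128, adjusted 0.213) and Spearman's rho = 0.358 (p = 0.161, adjusted 0.321), and without the 2 libraries farthest from the median Ttr, r was 0.300. Clic6 alone had r = 0.695 (permutation p = 0.00165, adjusted 0.0099) and rho = 0.696 (p = 0.00255, adjusted 0.0153). Without KO_22 and KO_18, the farthest from the median Ttr, r was 0.584 (permutation, adjusted p = 0.146), and without KO_22 alone it was 0.629 (permutation, adjusted p = 0.05004, just above the threshold), while without KO_18 alone it was 0.675 (permutation, adjusted p = 0.0256). The call thus rests on KO_22. Kl had r = -0.174, and Folr1 (0.335), Kcnj13 (0.372) and Otx2 (0.429) had adjusted permutation p-values above the threshold. Without the 2 farthest libraries Folr1 was at r = -0.0946 and Otx2 at -0.00407, and Kl was at 0.0144 without KO_22, so no direction can be given for these 3 genes.

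Over all genes, the slope on log2 Ttr in the same 17 libraries, at equal genotype, gave 0 called genes of 15950 (0%) in edgeR's quasi-likelihood test at an adjusted p below 0.05, with 3451 genes (21.6%) at an unadjusted p below 0.05, 1421 up (8.91%) and 2030 down (12.7%). Without KO_22 the unadjusted count was 1533. The smallest adjusted p was 0.0775, shared by several genes. Among them were Insig1 (slope 0.11), a regulator of sterol synthesis, Dpf3 (-0.21) and Clic6 (slope 0.77, SE 0.179). The genes with the smallest unadjusted p were Insig1, Dpf3, Tspan18, Xk, Tmem131l, Cblb, Pfkfb3, Kcns2, St5 and Insr, the insulin receptor gene. Clic6 ranked below these genes. DESeq2 called 883 genes, 251 up and 632 down, and edgeR called 750 without WT_10, so the count rests on the tool and on that library. Of the 4 choroid markers tested besides Ttr, 1 reached an unadjusted p below 0.05, Clic6. In the same test, 6 of 8 dentate gyrus genes reached it downward and 5 of 10 astrocyte genes upward. These lists were picked after their values in the 17 libraries were seen. Measures of depth were set beside Ttr there: log2 Ttr had r = 0.555 with the number of genes detected (permutation p = 0.0208; rho 0.434, p = 0.0828; r = 0.495 without the 2 farthest libraries) and r = 0.421 with the log2 library total (p = 0.0912; rho 0.412, p = 0.101; r = 0.412 without the 2 farthest). With the library total as a covariate 0 genes were called in edgeR and 1960 had an unadjusted p below 0.05. The part of depth in the remaining slopes was not tested.

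**Figure D5:**
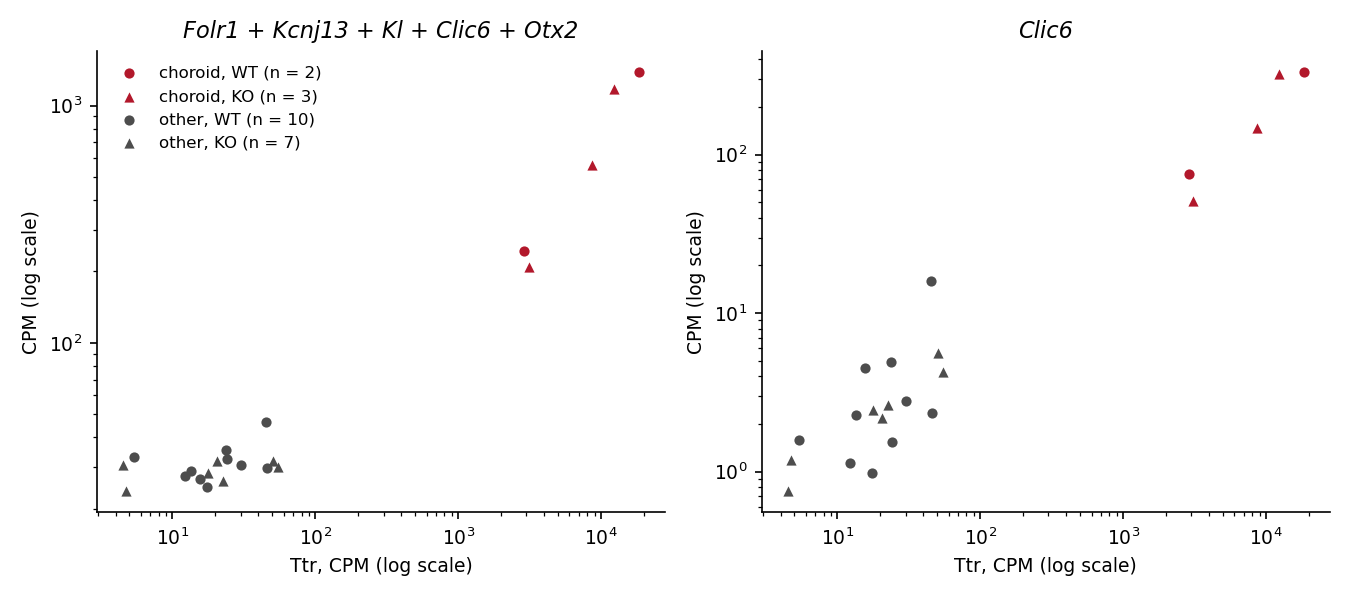
Summed CPM of Folr1, Kcnj13, Kl, Clic6 and Otx2 (left) and CPM of Clic6 (right) against CPM of Ttr, on log axes, 1 point per library, with the 5 choroid-containing libraries in red, the 17 others in grey, WT as circles and KO as triangles. Among the 17 in grey the correlation with Ttr was r = 0.385 for the sum and 0.695 for Clic6.

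Ins2, the targeted gene, had 0 counts in all 11 KO libraries, KO_8 included, but also in 5 WT libraries, so a count of 0 does not check the label of a single library. In the WT libraries Ins2 (ENSMUSG00000000215, chr7:142678656-142743381) had 18 counts in WT_17, 2 in WT_14 and 6 in all over 5 of the 10 others, where the most in 1 library was 2. The choroid-containing WT libraries thus held 20 of the 26 counts, 0.639 CPM by library total (95% exact Poisson interval 0.390 to 0.987), against 0.0349 (0.0128 to 0.0759) in the other WT libraries. The intervals cover counting error only and the 18 counts of 1 library carry the difference. Per 100000 counts of Ttr, Ins2 came to 6.07 (3.59 to 9.59) in WT_17 and 4.60 (0.557 to 16.6) in WT_14, and to 147 (54.0 to 320) in the other WT libraries, where both genes were low. The 3 choroid-containing KO libraries had 0 against 405604 Ttr counts, where 3 counts would come to 0.740. Ins2 was below the filter on low counts and was not tested.

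Choroid plexus RNA was found in 2 of 12 WT and 3 of 11 KO libraries with KO_8 counted (odds ratio 0.533, Fisher's exact test, two-sided, p = 0.640), and in 3 of 10 KO libraries without it (odds ratio 0.467, Fisher's exact test, p = 0.624). KO and WT were then compared over 22 libraries with the choroid set as a term of 2 levels, which does not level Ttr within a set. Of 15870 genes, edgeR's quasi-likelihood test called 2 (0.0126%), while 862 (5.43%) had an unadjusted p below 0.05, or 1717 without KO_22. Ccnd1 (ENSMUSG00000070348, chr7:144929931-144939925), the cyclin D1 gene, was the 1 gene that fell (0.0063%), with a log2 fold change of -1.15 (SE 0.0685) and an edgeR adjusted p of 2.28e-10. Among the choroid-containing libraries it had 66.4 CPM in WT_14 and 58.2 in WT_17, but 24.4 in KO_2, 27.1 in KO_6 and 26.5 in KO_12, and among the others 46.6 to 71.8 in WT and 23.2 to 31.1 in KO. The genotypes did not overlap in either set. Gm26793, annotated as an antisense gene at chr7:144894560-144897461, was the 1 gene that rose (0.0063%), by 3.05 (SE 0.400, edgeR adjusted p = 0.000758), with at most 1.12 CPM in any WT library and 1.36 to 2.26 in KO. The use of strand in counting is not given, so its counts are uncertain. Of the 6 markers 5 were high enough to test here, Ttr among them. Of these and of the other choroid plexus lists 0 genes were called, and the tested markers had a median of -0.19.

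Inside the 5 choroid-containing libraries, 2 WT and 3 KO, with log2 Ttr as a covariate, edgeR called 4 of 16471 genes (0.0243%), 1 up (0.00607%) and 3 down (0.0182%), and 950 (5.77%) had an unadjusted p below 0.05. Ccnd1 was again lower in KO, by -1.25 (SE 0.0936, edgeR adjusted p = 0.00941). Gm10182, a processed pseudogene, was at 24.8 and 17.7 CPM in WT_14 and WT_17 and at 0.237 to 0.712 in the KO libraries (edgeR adjusted p = 0.00756), but in the other libraries it ran from 0.434 to 16 CPM in WT and from 0.272 to 28.2 in KO. Eno1, enolase 1, had 329 and 482 CPM in WT and 538, 705 and 753 in KO (log2 fold change 0.74, SE 0.073, edgeR adjusted p = 0.0357), against 462 to 807 in WT and 316 to 692 in KO among the others. Pagr1a had 4.57 and 8.56 CPM in WT and 0 in all 3 KO libraries (edgeR adjusted p = 0.0248), and 0 in most of the other libraries of both genotypes. Without the Ttr covariate 0 genes were called, and leaving out a library gave 1 call without KO_6, 6 without KO_12, 14 without WT_17, 21 without WT_14 and 45 without KO_2. Of the 4 genes named, 0 were among the calls without KO_6 or without WT_14, 2 without WT_17, 3 without KO_12 (all but Eno1) and 4 without KO_2. Of the 5 markers besides Ttr, all tested here, 0 were called and their median was -0.12. With 0.0243% of all genes called in these 5 libraries, nothing is read from that count. Whether the genotype difference itself differs between the 2 sets of libraries was not tested.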

How the data were processed

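The samples were hippocampal RNA of Ins2+/+ and Ins2-/- female mice, read by sequencing. Per the labels' protocols, RNA was extracted with Trizol and a column, and a stranded kit was used to prepare mRNA libraries. The submitters' processing notes name bcl2fastq, STAR and mm10; the counting program, its use of strand and the annotation release are not given in the sources used here. The authors deposited 1 table of estimated counts for 45706 gene identifiers, of which 45143 (98.8%) were matched to a symbol, with 0 rows that name no gene. Per library, 24.6% to 27.2% of values above 0 carried decimals, and all were rounded to whole numbers here. Genes with near-identical copies are uncertain.

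Columns were matched to samples by library name, with 0 left over. No pair of libraries of 1 genotype was as alike as sampling noise allows (smallest chi-square over its degrees of freedom 7.33). A count of 0 allows up to 3 counts, 0.131 to 0.218 CPM by library total, for counting error only.

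edgeR 4.0.16 (limma 3.58.1, R 4.3.3) was used with filterByExpr, TMM scaling and robust quasi-likelihood fits, and Benjamini-Hochberg adjustment ran over all genes tested, with 0.05 as the threshold. The choroid contrast had genotype as a term and gives no p. Correlations and exact tests used scipy 1.17.1 (numpy 2.4.6, pandas 2.3.3, Python 3.11.15). The procedure was tested on simulated data. Positions and overlaps come from GENCODE M21, promoters from RefSeq. One listed gene of 269, Dnai2, had no match in the table.

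The members, the 27 gene lists, the tests and the alternatives were chosen with earlier results of these data known. The genes named are Ins2, the 6 markers and any listed gene; up to 20 higher and 15 lower genes of no list with the largest log2 fold changes and 1 CPM or more on average; the 10 smallest p-values of the Ttr slope; up to 5 called genes in each direction in each genotype comparison; and the 10 steadiest and 5 least steady ratios to Ttr among genes with a mean of at least 5 CPM. Genes just inside or outside a threshold, those among the 43 lower genes, and genes given for their promoter or an overlap were chosen after their values were seen. Alternatives were RLE size factors, DESeq2 1.42.0, no filter, a mean of at least 50 counts, other covariates, the library KO_8 kept, and leaving out each library in turn. A few genes that these rules select are not reported here.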

Additional observations from a re-analysis of the deposited data

Results flagged for a closer look

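In 117 groups of 4 to 10 libraries checked for a library far from the rest of its group, 4 had one, and such a check picks out about 5% of groups by chance. Among the 10 WT libraries without choroid plexus, WT_11 had the highest Kcnj13, 1.27 CPM, and WT_15 the highest Clic6, 16 CPM, and the highest Otx2, 6.46 CPM. Among the 7 KO libraries without choroid plexus, KO_4 had the highest Otx2, 8.97 CPM. WT_15 held 1008 Ttr counts and KO_4 held 379, both far below the choroid-containing libraries. The library left out of the choroid, Ttr and genotype comparisons, KO_8, held a Pmch count of 10149, against at most 7.36 in any other library.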

How the results depend on the processing

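No paired analysis was possible because no replicate number occurs in both genotypes. The 232 genes described as higher became 228 with RLE size factors, 230 with DESeq2, 283 without a filter, 160 with a mean of at least 50 counts, 184 with KO_8 kept, 229 without the genotype term and 133 at a log2 fold change of at least 2. Leaving out each library in turn gave 220 to 392, with 0 to 2 lower. With WT libraries only, chosen after seeing the data, 437 were higher and 24 lower, and with KO libraries only, also chosen afterwards, 403 and 3; fewer libraries overlap less often. Between 40 and 56 listed genes were higher when a library was left out. The Ttr slope gave 883 calls in DESeq2 and 0 to 750 without 1 library, the most without WT_10 and 1 (F5) without WT_11. A slope on the sum of the 5 other markers, fitted in place of Ttr, gave 4 calls. The genotype test gave 7 calls in DESeq2, 1 with a mean of at least 50 counts, and 2 to 3 without 1 library. Inside the 5 choroid-containing libraries it gave 14 in DESeq2, 32 without a filter, 0 without the Ttr covariate and 1 to 45 without 1 library; leaving out a WT library leaves 1, assumed to vary like the KO libraries. The cause of these differences was not tested. The summed markers had r = 0.250 to 0.495 without 1 library. Among correlations short of the threshold, Folr1 (r = -0.0946) and Otx2 (-0.00407) changed sign without the 2 libraries farthest from the median Ttr, and Kl, at -0.257 to 0.0144 without 1 library, did so without KO_22. Called or described results kept their direction; log2 fold changes near 0 did not always (Tjp1 -0.06 to 0.00 without 1 library). Genes near 3 counts per library are limited by depth.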
